A study of Arabidopsis thaliana with 9 samples.

Results

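bZIP44 (AT1G75390) and EEL (AT2G41070) are 2 genes for transcription factors of the basic leucine zipper (bZIP) family. Both were picked by name with their changes in these data already known, and each is measured here by 1 transcript cluster (the group of array probes that reads one gene or transcript) that is paired with no other gene. They are 2 of 16548 genes measured in this way. The samples were detached leaves of the Arabidopsis thaliana accession Col-0, cut from 21-day-old soil-grown plants and kept for 48 h in darkness in MS medium. The medium held 10 µM of compound 6, 10 µM of compound 3, or 0.05% DMSO as solvent control. The labels call both compounds cytokinins and give only these code names. Each of the 3 groups had 3 biological replicates, each replicate pooled 10 to 15 leaves, and each was run on its own Affymetrix array.

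bZIP proteins bind DNA as dimers, held together by the leucine zipper, and many recognise sites with an ACGT core. bZIP44 belongs to group S1 of the family, whose members pair with group C factors, reprogram amino acid and carbon metabolism when energy is short, and are held back at translation by sucrose through a peptide encoded upstream of the main reading frame. EEL, also known as DPBF4 or bZIP12, belongs to group A with ABI5 and the ABF factors of abscisic acid signalling, and is known in maturing seeds for opposing ABI5 at the promoter of an Em gene. Cytokinins delay the senescence of detached leaves, which darkness speeds up.

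The 2 genes stood on opposite sides of control leaves. bZIP44 transcript was 6.71-fold lower with compound 6 and 10.1-fold lower with compound 3 than with DMSO alone. EEL transcript was 1.43-fold higher with compound 6 and 1.89-fold higher with compound 3. In both genes the compound 6 leaves lay between the compound 3 leaves and the control leaves. Since the genes were chosen for these differences, the values are a description and carry no test.

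**Figure D1:**
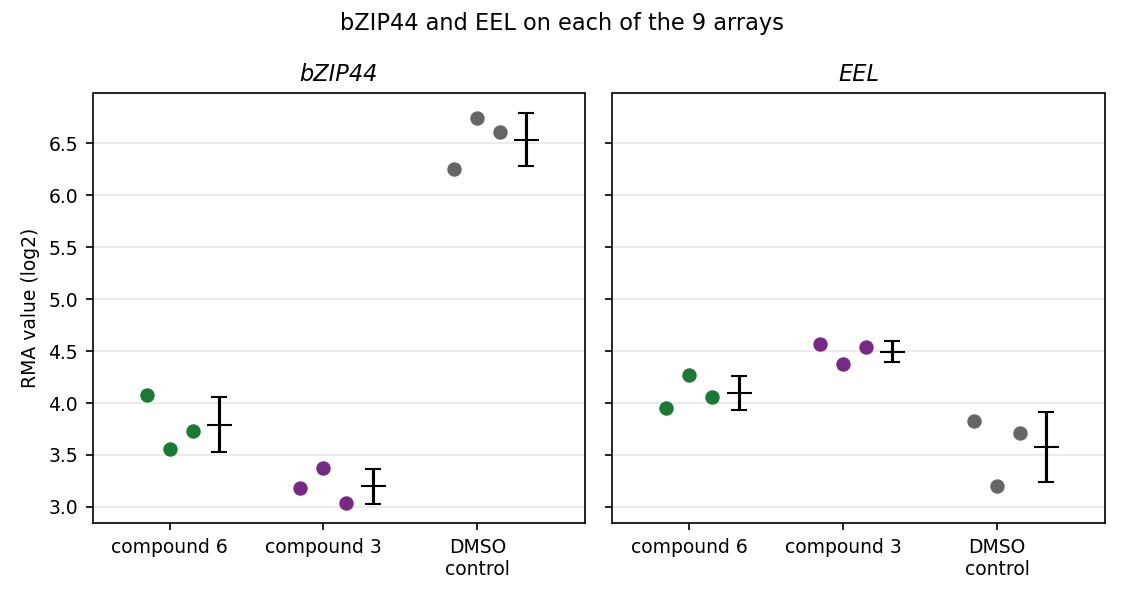
RMA values (log2) of bZIP44, left panel, and EEL, right panel, on each of the 9 arrays. Points are single arrays, and the bar beside each group is the mean with its SD over 3 arrays. bZIP44 lies between 3.04 and 4.08 on all treated arrays and above 6.2 on control arrays, whereas EEL is highest with compound 3 and lowest in control leaves.

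The bZIP44 values were 4.08, 3.56 and 3.73 with compound 6 (log2 RMA value, replicates 1 to 3). They were 3.18, 3.38 and 3.04 with compound 3, and 6.25, 6.74 and 6.61 with DMSO. No array of either compound came near the control arrays. The gap between the lowest control array and the highest treated array was 2.17 for compound 6 and 2.87 for compound 3, against a pooled SD within groups of 0.234. The group means were 3.79 ± 0.26 with compound 6, 3.20 ± 0.17 with compound 3 and 6.54 ± 0.26 with DMSO (SD, n = 3 each).

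The log2 difference of bZIP44 was -2.75 for compound 6 against control, with an SE of 0.21. For compound 3 against control it was -3.34 with the same SE. Among the 16722 transcript clusters paired with 1 gene, counted from the one lowered most, bZIP44 ranked 19 for compound 6 and 14 for compound 3. All treated arrays lay below all control arrays for 12.7% of these clusters with compound 6 and for 13.4% with compound 3. In either direction such separation was found for 24.6% and 26.4% of clusters. The compound 3 values of bZIP44 lie below the array medians over these clusters, 3.71 to 3.81 on the compound 3 arrays. Its compound 6 values, 3.56 to 4.08, lie around the medians of 3.7 to 3.8 on the compound 6 arrays. Signal over background was not measured, so the fold change of a transcript this dim is approximate. The same holds for EEL in control leaves, whose mean lies below the control array medians of 3.70 to 3.76.

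EEL read 3.95, 4.27 and 4.05 with compound 6, in the order of the replicates. With compound 3 it read 4.57, 4.38 and 4.54, and with DMSO 3.83, 3.20 and 3.71. The 3 groups did not overlap, but the gap between the lowest compound 6 array and the highest control array was only 0.13, less than the pooled SD within groups of 0.223. For compound 3 that gap was 0.55. Means were 4.09 ± 0.16 with compound 6, 4.49 ± 0.10 with compound 3 and 3.58 ± 0.33 with DMSO (SD, n = 3 each). Control leaves were the most variable group, spanning 0.63, and their replicate 2 was the lowest of the 9 arrays.

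EEL differed from control by 0.52 on the log2 scale with compound 6 and by 0.92 with compound 3, each with an SE of 0.21. Counted from the cluster raised most, EEL ranked 1771 for compound 6 and 689 for compound 3. All treated arrays lay above all control arrays for 11.9% of clusters with compound 6 and for 12.9% with compound 3. Without control replicate 2 the differences were 0.33 for compound 6 and 0.73 for compound 3. Scaling touched the compound 6 value as well: it was 0.27 with arrays centred on their medians over all 38408 clusters, including those of no gene or several, and 0.30 when quantile normalization was applied again, and under both the compound 6 and control arrays overlapped. That centring put the median change of the clusters of 1 gene at -0.27 for compound 6 and -0.15 for compound 3, and relative to it EEL differed by 0.54 and 0.91.

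**Figure D2:**
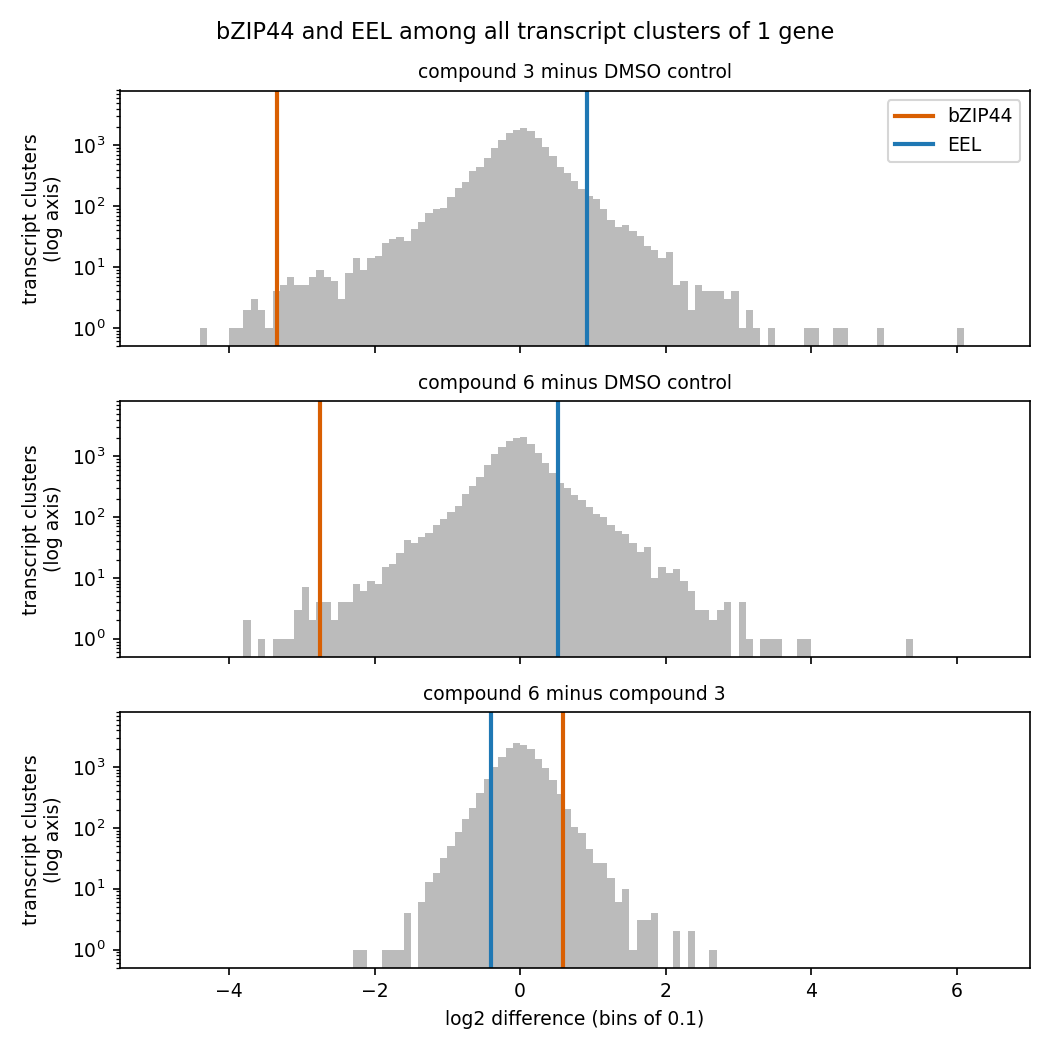
Distribution of the log2 difference over 16722 transcript clusters of 1 gene in 3 comparisons, in bins of 0.1, with the number of clusters on a log axis. Vertical lines mark bZIP44 (orange) and EEL (blue); bZIP44 lies in the far lower tail for both compounds against control, and EEL lies in the upper shoulder.

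The change of bZIP44 against control was the larger of the pair for both compounds. Subtracting the change of EEL from that of bZIP44 gave -3.26 for compound 6 and -4.25 for compound 3. Both comparisons use the same 3 control arrays. In the sample descriptions the running numbers of the control samples stand apart from those of the treated ones. Whether they were handled apart is not stated, and any such handling cannot be told apart from treatment. In whole leaves, a change per cell and a change in the share of cells that express a gene cannot be told apart either. No leaf was sampled before the 48 h, and a lower value is therefore lower than in control leaves at that time.

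The compounds were then set directly against each other at the matched dose and time. For bZIP44 they differed by less than either did from control. For EEL that order held for the values as deposited but turned round for compound 6 under both rescalings above, without control replicate 2 and without compound 6 replicate 2. Compound 6 then lay 0.27, 0.30, 0.33 and 0.43 above control and 0.49, 0.49, 0.40 and 0.49 below compound 3. bZIP44 was 1.51-fold higher with compound 6 than with compound 3, a log2 difference of 0.59 (SE 0.21). The bZIP44 signal is dim in both of these groups, so this fold is approximate. EEL was 1.32-fold lower with compound 6, a log2 difference of -0.40 (SE 0.21). The arrays of the compounds did not overlap for either gene, with gaps of 0.18 for bZIP44 and 0.11 for EEL, both under the SD within groups. Such separation was found for 16% of clusters of 1 gene, 8.13% higher and 7.84% lower with compound 6. For bZIP44 the compounds overlapped, at a log2 difference of 0.50, under the centring named above.

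Most of the other bZIP genes measured did not pass the test, which was also so for most clusters of 1 gene. The list of bZIP genes and the later gene lists were chosen with earlier results of these data known. Their counts and p-values are therefore a description and no independent support. Of 69 bZIP genes listed, 29 were measured by a cluster of 1 gene. Of these, 4 loci were left out because the gene tables do not give them the listed name, which leaves 23 besides bZIP44 and EEL. Among them bZIP23, bZIP42, bZIP43, bZIP48, bZIP52, bZIP70 and bZIP75 averaged 1.49 to 3.20 in every group. These means lie below the array medians of 3.70 to 3.81, as do those of bZIP58 with compound 6 (2.40) and compound 3 (2.04). Changes in genes this dim may go unseen. With compound 6, 1 of the 23 rose, 1 fell and 21 did not pass (limma, adjusted p under 0.05), against 10.3% of clusters of 1 gene called, 5.62% higher and 4.72% lower. With compound 3, 2 rose, 2 fell and 19 did not pass, against 11.7% of these clusters, 5.6% higher and 6.11% lower. Between the compounds none of the 23 passed with limma, 2 had an unadjusted p under 0.05, and 0.299% of these clusters were called, 0.215% higher and 0.0837% lower. The median log2 difference of the 23 was -0.21 for compound 6 and -0.22 for compound 3, beside -0.02 and 0.01 over the clusters of 1 gene. It was 0.02 between the compounds and turned to -0.07 with arrays centred over all 38408 clusters.

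**Figure D3:**
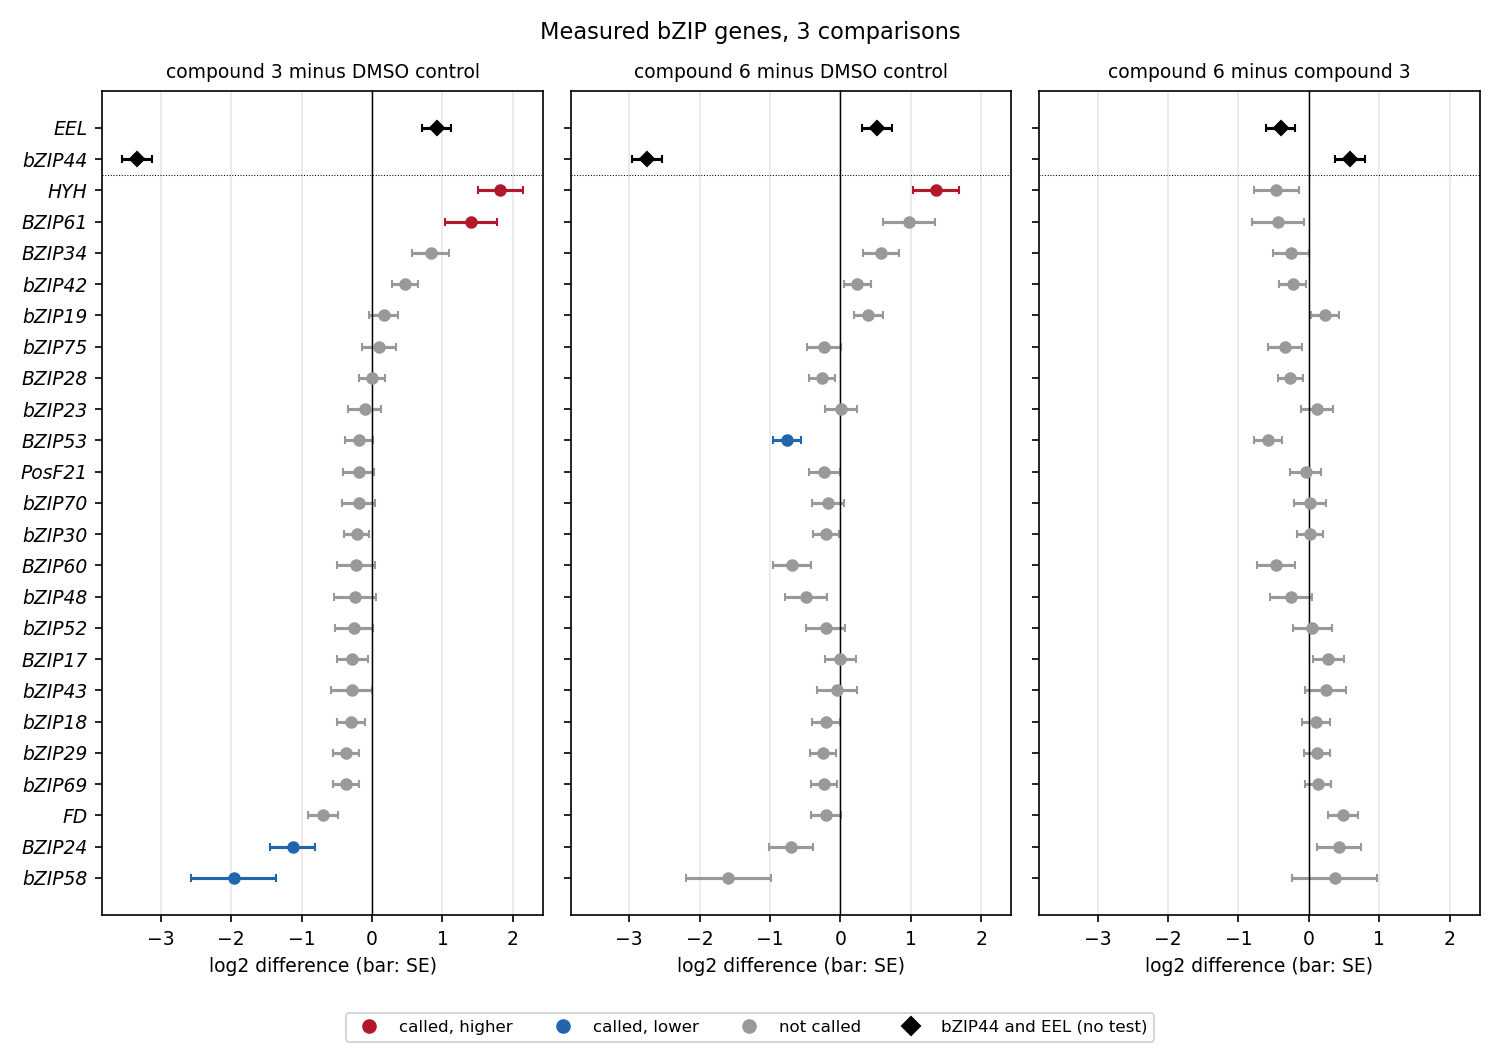
Log2 differences of the 25 bZIP genes used, with the moderated SE as bars, in 3 comparisons. bZIP44 and EEL (black diamonds, no test) are above the dotted line; red and blue points are genes called higher or lower, and grey points were not called. bZIP44, picked with its change known, has the lowest value for both compounds against control.

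The closest measured relative of bZIP44 by group was BZIP53 (AT3G62420), the other group S1 gene in the data, known for activating seed maturation genes and proline breakdown genes as a dimer with group C factors. BZIP53 read 8.77, 8.67 and 9.03 with compound 6, 9.45, 9.46 and 9.30 with compound 3, and 9.48, 9.87 and 9.39 with DMSO. The compound 6 arrays lay below all others, while the compound 3 and control arrays overlapped. BZIP53 fell by 0.76 (log2) with compound 6, with an SE of 0.20 (limma, adjusted p = 0.0252). It differed by -0.18 with compound 3 (adjusted p = 0.68), and the difference between the compounds, -0.58, did not pass (adjusted p = 0.299). The compound 6 call ended without compound 6 replicate 1 or 2 (adjusted p = 0.08 and 0.101), without control replicate 2 (adjusted p = 0.108) and with the replicate number as a block (adjusted p = 0.0541). Group C, the partners of group S1, was not analysed here because no cluster of 1 gene was paired with any of its 4 listed genes.

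In group A the other gene used was FD (AT4G35900), the partner of the flowering signal FT at the shoot tip. FD read 5.54, 5.88 and 5.76 with compound 6, 5.28, 5.36 and 5.08 with compound 3, and 5.92, 5.59 and 6.29 with DMSO. Its compound 3 arrays lay below all others, opposite in direction to EEL. Neither compound's difference passed, at -0.20 for compound 6 (adjusted p = 0.695) and -0.69 for compound 3 (adjusted p = 0.0522). ABI5 and the ABF genes were not analysed here.

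Among the remaining bZIP groups HYH (AT3G17609), the homologue of the light signalling factor HY5, rose with both compounds. HYH read 4.77, 6.07 and 5.73 with compound 6, 6.32, 6.09 and 5.55 with compound 3, and 3.82, 4.07 and 4.60 with DMSO. No treated array overlapped the control arrays, although compound 6 replicate 1 came close. The log2 difference was 1.36 for compound 6 (SE 0.32, adjusted p = 0.0135) and 1.82 for compound 3 (SE 0.32, adjusted p = 0.00185). The compound 3 call held in all 18 alternatives run. The compound 6 call ended without compound 6 replicate 2 or 3 (adjusted p = 0.0672 and 0.0577), without control replicate 1 (adjusted p = 0.0619) and when all 38408 clusters were tested (adjusted p = 0.0531).

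The other 3 bZIP calls were made for compound 3. BZIP61 (AT3G58120), a group E factor, rose by a log2 difference of 1.41 (limma, SE 0.37, adjusted p = 0.0221), to 6.87 ± 0.19 against 5.46 ± 0.85 in control leaves (SD, n = 3 each). Its call ended without compound 3 replicate 1 or 2 (adjusted p = 0.0609 and 0.0816), without control replicate 2 (adjusted p = 0.0803) and when all 38408 clusters were tested (adjusted p = 0.0758). BZIP24 (AT3G51960), of group F and known from salt stress, fell by 1.13 (SE 0.32, adjusted p = 0.0316), to 6.88 ± 0.39 against 8.01 ± 0.62 in control leaves. Its call ended without compound 3 replicate 2 or 3 (adjusted p = 0.125 and 0.0943), without control replicate 3 (adjusted p = 0.126), with the replicate block (adjusted p = 0.055), with all 38408 clusters tested and with array weights (adjusted p = 0.0892 and 0.0717). bZIP58 (AT1G13600), of group S, fell by 1.96 (SE 0.60, adjusted p = 0.0499), but its control arrays read 2.31, 3.73 and 5.95. That call was kept in 6 of the 17 alternatives run, and without control replicate 3 the difference was -0.99 (adjusted p = 0.0985). The call of bZIP58 also ended without any 1 of the compound 6 arrays (adjusted p = 0.0619, 0.0563 and 0.0619 for replicates 1 to 3), any 1 of the compound 3 arrays (0.123, 0.0955 and 0.133) or control replicate 2 (0.0794).

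BZIP17, BZIP28 and BZIP60, which respond to misfolded protein in the endoplasmic reticulum, did not pass for either compound. Their log2 differences from control were -0.00, -0.26 and -0.69 with compound 6 and -0.28, 0.00 and -0.23 with compound 3. Nor did bZIP19 and bZIP23, the zinc deficiency factors, at 0.39 and 0.01 with compound 6 and 0.17 and -0.11 with compound 3. None of the 23 other genes had a larger change than bZIP44 for either compound. That order is no result, since bZIP44 was picked with its change known. The genes that are dim in every group could also hardly show so large a fall.

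Group A factors act on abscisic acid responsive genes, and 7 of 21 such genes on the list were measured. The list was chosen with earlier results of these data known, so its calls are a description. COR47 (AT1G20440), a dehydrin, fell with both compounds, and the other 6 did not pass with either. Of the clusters of 1 gene, 4.72% were called lower with compound 6 and 6.11% with compound 3. A count of 1 in 7 is too small to set the list apart from these shares. COR47 read 7.09, 7.18 and 7.14 with compound 6, 6.18, 6.59 and 6.15 with compound 3, and 8.93, 9.22 and 9.11 with DMSO. As for bZIP44, the 3 groups did not overlap and compound 6 lay in the middle. The log2 difference was -1.95 for compound 6 (SE 0.19, adjusted p = 2.49e-05) and -2.78 for compound 3 (SE 0.19, adjusted p = 6.98e-07). The list's median was -0.19 for compound 6 and -0.25 for compound 3, beside -0.02 and 0.01 over the clusters of 1 gene. Its other members were COR15A, COR15B, KIN1, KIN2, LTI30 and M10, all cold, drought or late embryogenesis genes, of which KIN1 and KIN2 are close copies that probes may not tell apart, with differences of -0.55 to 0.16 with compound 6 and -0.54 to 0.36 with compound 3. Apart from KIN2, these other members averaged 1.31 to 3.13 in every group, below the array medians of 3.70 to 3.81. A fall in genes this dim may go unseen, so not passing says little about them. Between the compounds 0 of the 7 passed with limma, against 0.299% of the clusters of 1 gene, and 2 had an unadjusted p under 0.05. The genes of abscisic acid receptors, phosphatases, kinases, synthesis and breakdown, the seed storage genes and the mannanases, one of which bZIP44 is known to activate during germination, were not analysed here.

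Group S1 factors act in energy shortage, and of 25 listed genes of that response and of amino acid breakdown 6 were used. With compound 6, 3 of the 6 fell, and with compound 3, 3 of the 6 fell, against 4.72% and 6.11% of the clusters of 1 gene. The genes that fell were the same in both comparisons, which share their control arrays. This list was chosen with earlier results of these data known, so the counts and p-values are a description and no independent support. LKR (AT4G33150), the entry enzyme of lysine breakdown, changed by -1.70 with compound 6 (adjusted p = 0.000249) and by -1.72 with compound 3 (adjusted p = 0.000166). MCCB (AT4G34030), of leucine breakdown, changed by -1.74 with compound 6 (adjusted p = 0.000544) and by -1.48 with compound 3 (adjusted p = 0.00162). D2HGDH (AT4G36400), a hydroxyglutarate dehydrogenase, changed by -0.91 with compound 6 (adjusted p = 0.0171) and by -0.84 with compound 3 (adjusted p = 0.0261). The D2HGDH call for compound 6 ended without compound 6 replicate 2 (adjusted p = 0.0827) or control replicate 1 or 2 (0.0773 and 0.0576). For compound 3 it ended without compound 3 replicate 1 or 3 (0.116 and 0.0541), control replicate 1 or 2 (0.108 and 0.0736) and with all 38408 clusters tested (0.0576). ETFQO, PPDK and the SnRK1 subunit gene AKINBETA1 did not pass. The list's median was -0.84 for compound 6 and -0.64 for compound 3, beside -0.02 and 0.01 over the clusters of 1 gene. Between the compounds none of the 6 passed with limma, and 0 had an unadjusted p under 0.05. In that comparison 0.299% of the clusters of 1 gene were called, so a count of 0 in 6 says little.

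Markers of the leaf and of the treatment were read on the same arrays. The 5 measured leaf mesophyll markers (RCA, SBPASE, PRK, LHCB4.2 and LHB1B2) had group means of 8.01 to 11.1 with compound 6, 8.15 to 10.8 with compound 3 and 5.55 to 10.3 with DMSO, all above the array medians. All 5 rose with compound 6 (log2 differences of 0.82 to 3.13), and 4 of 5 rose with compound 3 (range of the 5, 0.52 to 2.77), against 5.62% and 5.6% of the clusters of 1 gene. The compound 3 call of LHCB4.2 was kept in 4 of the 18 alternatives run (adjusted p of 0.0203 to 0.179). Its compound 6 call was kept in 13 and ended under the centring over all 38408 clusters (adjusted p = 0.0795) and without compound 6 replicate 2 or 3 (0.0868 and 0.0685) or control replicate 1 or 2 (0.0867 and 0.068). The compound 6 call of LHB1B2 was kept in 15 and ended under that centring (0.112) and without compound 6 replicate 1 (0.0646) or control replicate 1 (0.0678). The guard cell gene FAMA (FMA in the gene tables) averaged 5.98 with compound 6, 5.33 with compound 3 and 5.71 with DMSO, and did not pass in any comparison. Nor did the phloem parenchyma gene SWEET11, which averaged 11.2 with compound 6, 10.8 with compound 3 and 11.0 with DMSO. No epidermis or seed marker was measured by a cluster of 1 gene. ARR15, a cytokinin-induced response regulator, averaged 5.57 ± 0.48 with compound 6, 7.45 ± 0.26 with compound 3 and 2.49 ± 0.31 with DMSO (SD, n = 3 each). It was lower with compound 6 than with compound 3 by a log2 difference of -1.88 (adjusted p = 0.00654, and 0.0846 with all 38408 clusters tested). RR16, the other such gene measured, differed by -0.65 between the compounds and did not pass (limma, adjusted p = 0.411). Against control both genes were called higher with either compound. With compound 6 and compound 3 in turn, ARR15 rose by 3.08 and 4.96 and RR16 by 1.97 and 2.62. Of the 2 measured senescence genes WRKY6 fell with compound 6 by 0.77 (adjusted p = 0.0142, but 0.0593 without compound 6 replicate 2 and 0.0521 without control replicate 2), and SAG29 did not pass. The marker lists, too, were chosen with earlier results of these data known, so their counts and p-values are a description. Whether these markers have a part in the values of bZIP44 and EEL was not tested.

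The genes whose values followed bZIP44 most closely were found by Pearson's r over the 9 arrays among the other 16721 clusters of 1 gene. The points share arrays and fall into 3 groups, so r reflects the group differences and is given as a description. Of the 16548 genes, 1762 have a symbol other than the locus, so genes picked by symbol, here and for EEL, come from a small part. AT1G72800 had the highest r, 0.995, followed by EXLB1 (AT4G17030), an expansin-like gene, with 0.995 and AT3G14280 with 0.995. AT1G72800 read 4.86, 4.64 and 4.69 with compound 6, 4.22, 4.21 and 4.32 with compound 3, and 6.95, 7.15 and 7.07 with DMSO, the same order of groups as bZIP44. Next among genes with a symbol came CHAT (AT3G03480), an acetyltransferase of green leaf volatile synthesis, with an r of 0.987, and COR47 with 0.985. WES1 (AT4G27260), which joins amino acids to auxin, had 0.985 and the chitinase gene ChiC (AT4G19810) 0.984. All 7 were lower with either compound than with DMSO, a direction that follows from picking them by r with bZIP44. Their log2 differences were -1.66 to -2.71 with compound 6 and -1.85 to -3.28 with compound 3. An r over 0.95 with bZIP44 was reached by 151 clusters.

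An r over 0.95 with EEL was reached by 7 clusters. EEL differed less between groups than bZIP44 at a similar SD within groups. The counts of clusters with a high r therefore do not compare the 2 genes. The highest r with EEL were those of AT3G59020 with 0.968, AT4G32800 with 0.968 and AT3G04890 with 0.962. Among genes with a symbol the first was RR16 (AT2G40670), a type-A response regulator of cytokinin signalling, with an r of 0.935. RR16 read 8.26, 8.78 and 8.45 with compound 6, 9.33, 8.99 and 9.12 with compound 3, and 6.43, 5.98 and 7.16 with DMSO, again in the order of EEL. Then came the plastid RNA polymerase gene rpoC1 with 0.931, PSF2 (AT3G12530), a subunit of a DNA replication complex, with 0.914, EC1.2 (AT2G21740), known from egg cells, with 0.913, and GME (AT5G28840), an enzyme of ascorbate synthesis, with 0.894. All 8 were higher with either compound than with DMSO, a direction that largely follows from picking them by r with EEL. Their log2 differences were 0.32 to 1.97 with compound 6 and 0.61 to 2.62 with compound 3.

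**Figure D4:**
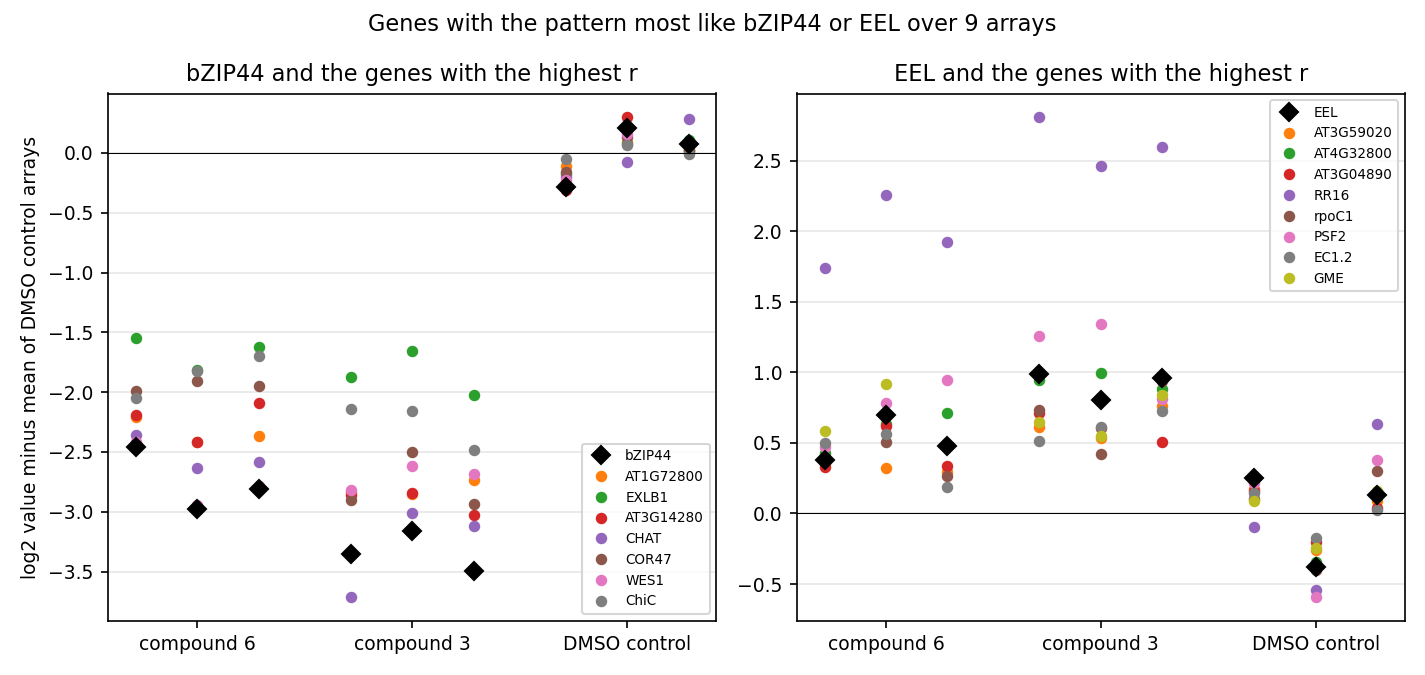
Log2 values on the 9 arrays, each gene set relative to its mean over the 3 DMSO control arrays, for bZIP44 (left, black diamonds) and EEL (right, black diamonds) with the genes of highest Pearson's r (coloured points). Each column of points within a group is 1 array. The genes like bZIP44 lie below 0 on every treated array, and those like EEL lie above 0, which largely follows from picking them by r.

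Genes next to bZIP44 and EEL on their chromosomes were read as well. Of the 5 protein-coding genes on either side of bZIP44 in the RefSeq order of assembly TAIR10.1, 6 of 10 were measured. Over all clusters of 1 gene, 10.3% were called with compound 6 and 11.7% with compound 3. With compound 6 none of the 6 passed with limma (differences of -0.51 to 0.26), and with compound 3 AT1G75340 fell by 0.79 (adjusted p = 0.0256) and 5 did not pass. That call was kept in 12 of 18 alternatives and ended without any 1 of the compound 3 arrays (adjusted p = 0.0594, 0.0653 and 0.0825) or control replicate 3 (0.103). The nearest measured gene, AT1G75400, had differences of -0.49 with compound 6 (adjusted p = 0.131) and -0.36 with compound 3 (adjusted p = 0.279). Around EEL 7 of 10 neighbours were measured. AT2G41090 rose by 0.78 with compound 6 (adjusted p = 0.0446), a call kept in 8 of 18 alternatives and ended, among others, without compound 6 replicate 1 or 3 (0.144 and 0.155), compound 3 replicate 2 or 3 (0.0548 and 0.0524) or control replicate 1 or 3 (0.0804 and 0.151). With compound 3 none of the 7 passed with limma (differences of -0.66 to 0.27). Counts this small, here and around bZIP44, cannot set the neighbours apart from the shares over all clusters of 1 gene.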

How the data were processed

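The deposited file holds 1 log2 value per transcript cluster and array. Per the submitters' processing notes, RMA and the R packages oligo and limma were used, with no version, and the base of the logarithm is not stated. Values of 0.132 to 13.9 have the range of RMA on the log2 scale, which was taken as the base. The order of neighbouring genes was taken from the RefSeq table of assembly TAIR10.1, and coordinates are left out. Arrays have no read depth, and their number limits the precision.

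Of 38408 transcript clusters, 16722 were paired with 1 gene through the platform annotation, and symbols were updated from the RefSeq table of TAIR10.1. A linear model of 3 group means over all 9 arrays was fitted to these with limma 3.58.1 in R 4.3.3 (lmFit, eBayes). It had 6 residual and 7.89 prior degrees of freedom. P-values are two-sided and Benjamini-Hochberg adjusted over all 16722 clusters, with a call under 0.05. Folds are differences taken off the log2 scale and SE is the moderated standard error. The fit was also run on simulated data with 200 changed genes, but the outcome is not given here and lends the calls no weight. The labels name biological replicates, so p-values measure the spread between these.

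The 2 genes and the gene lists were chosen with earlier results of these data known, so bZIP44 and EEL get no p-value. The genes named from each list are the called members with the greatest change, up to 4 per comparison, measured members of bZIP groups S1, C and A, and, for likeness, the 3 highest r over all and the 5 highest among genes with a symbol. Neighbouring genes and other genes named as not passing were added after the data were seen. Listed loci whose name was missing from the gene tables, 6 of 55 measured, were left out. Figures were drawn with matplotlib 3.10.9.

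Alternatives were 3 rescalings, fits on the groups compared alone, each array left out in turn, a replicate block, all clusters tested, dim clusters left out, a variance trend and array weights. Same-numbered replicates of different groups had correlated deviations from group means in 2 of 9 pairs (r over 0.1), so the numbers were not taken to pair samples. Replicates with other numbers had them in 8 of 18 pairs, with a highest r of 0.511 for compound 6 replicate 2 and control replicate 3. The main fit treats the arrays as independent and does not model such shared deviations.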

Additional observations from a re-analysis of the deposited data

How the results depend on the processing

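No difference of bZIP44 or EEL changed sign in any of the alternatives run. With 1 array left out in turn bZIP44 ranged from -2.89 to -2.63 for compound 6 against control, from -3.48 to -3.23 for compound 3 and from 0.45 to 0.70 between the compounds, and EEL from 0.33 to 0.64, 0.73 to 1.04 and -0.49 to -0.33. Centring arrays on medians taken over all 38408 clusters gave -2.99 for bZIP44 and 0.27 for EEL with compound 6. The same centring changed the share of higher calls over the clusters of 1 gene to 26% against 54.3% as deposited for compound 6, to 29.3% against 47.8% for compound 3 and to 58.7% against 72% between the compounds. Quantile normalization applied again gave 38.9% for compound 6.

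Calls among the other 23 bZIP genes numbered 0 to 4 for compound 6 and 1 to 4 for compound 3 with 1 array left out, against 2 and 4. For compound 6 they were 4 with that centring, 1 with all clusters tested and 1 with the replicate block, and for compound 3 they were 1 with all clusters tested. Testing all clusters, which adds those paired with no gene or several, made 3144 calls for compound 6 (64.2% higher) and 3360 for compound 3 (55.7% higher), against 1728 and 1957. Between the compounds the 50 calls became 20 to 112 with 1 array left out, 29 with the replicate block, 3 with all clusters tested, 102 without dim clusters and 135 with array weights, and the 1 call in the other lists became 0, 2 and 2 under the last 3. The causes were not tested. The replicate block also ended the calls of BZIP24 and BZIP53, that of LHCB4.2 for compound 3 and those of the neighbours AT1G75340 and AT2G41090 (alternatives for neighbours were chosen after seeing the data), and it left every difference of bZIP44 and EEL at its value.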
